A study of Homo sapiens with 9 samples.

Results

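L1 elements, the LINE-1 retrotransposons, made up 132 of the 1181 repeat subfamilies in a deposited count table of 61832 rows. A row was a member when its family field read L1, a rule that used no measured value. The names alone split them into 26 young subfamilies, 88 older L1M subfamilies, 4 HAL1 subfamilies and 14 others. The young names were 18 of L1HS and L1PA and 8 of L1PB, and the others were 13 L1P names without A or B, including L1PREC2, and X9_LINE. After the filter on low counts 127 were left, and L1P, L1P3b, L1P4b, L1P4c and L1P4e were not. L1P4c had 0 counts in all 9 libraries, and a count of 0 allows up to 3 counts, counting error only.

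An intact L1 element carries its own promoter and encodes ORF1p, an RNA-binding protein, and ORF2p, which has endonuclease and reverse transcriptase activity. Together they copy the element's RNA into a new place in the genome. L1HS is the human-specific subfamily, L1PA names are primate lineages and L1M names are older lineages shared among mammals. In somatic cells L1 promoters are held down by DNA methylation and repressive chromatin, and loss of that methylation is common in colorectal cancer. Most copies are truncated remnants, and many lie inside introns or untranslated regions of genes, so RNA carrying L1 sequence can also come from the host gene's transcript.

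The 9 libraries were made from HCT116 cells, a long-established line from a human colorectal tumour with the genotype label WT, and are labelled as 3 groups of 3. In the shCTRL DMSO group the cells held a control short hairpin (shRNA) and were given DMSO, a solvent. The shSLC6A3 DMSO group carried a hairpin against SLC6A3, the dopamine transporter gene also called DAT, and received DMSO. The shCTRL VXN group carried the control hairpin and received VXN, an agent named only by these letters. No label says that the replicates were separate cultures, so a p-value weighs only how these libraries scatter, and that scatter may be technical.

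The authors deposited 2 tables of DESeq2 results, one setting shCTRL V and the other shDAT D against shCTRL D, which draw on column sets that cut across the labelled groups. The shCTRL V set holds replicate 3 of shCTRL DMSO, replicate 1 of shSLC6A3 DMSO and replicate 3 of shCTRL VXN. The shDAT D set holds replicates 1 and 2 of shCTRL DMSO with replicate 1 of shCTRL VXN. Replicates 2 and 3 of shSLC6A3 DMSO with replicate 2 of shCTRL VXN form the shCTRL D set. Values of a set are given in that order throughout. With these columns a DESeq2 rerun returned the deposited p-value of all 131 L1 rows that have one, within 1e-05, in both tables. What each library received is not inferred here, so the set names stand for columns of the authors' tables and not for treatments. The tables and the labels thus disagree on which libraries belong together, and which of them gives the treatments was not settled here. Between labelled groups, deviations of libraries from their group means correlated positively where both or neither lay in the shCTRL V set, and negatively otherwise. Expression thus set the shCTRL V library apart from the rest within each labelled group.

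Totals ran from 30251364 to 60215785 counts per library, of which L1 rows held 95403 to 174573. SLC6A3, the target of the hairpin, had 6, 2 and 2 counts in shCTRL DMSO, 3, 1 and 0 in shSLC6A3 DMSO and 0, 3 and 2 in shCTRL VXN, too few to check the labels. Markers of epithelium, 7 of 8 of them at 1 CPM (counts scaled to library totals) or more, summed to 4466 to 5328 CPM. All 4 endothelial markers, 5 of 6 leukocyte markers and 5 of 7 mesenchymal markers lay below 1 CPM on average, LUM and MS4A1 at 0 in every library. The 3 shCTRL VXN libraries carry identifiers of their own number series, whose meaning the labels do not state, and each column set holds 1 of them as its last library. Where these libraries stood within their sets differed between them. shCTRL VXN replicate 3 was the lowest of the shCTRL V set in 84 of the 127 L1 subfamilies past the filter and the highest in 14, whereas over all 20402 rows it was lowest in 8042 and highest in 8540. In the shDAT D set, shCTRL VXN replicate 1 was lowest in 65 L1 subfamilies and highest in 23, and over all rows lowest in 7624 and highest in 7788. In the shCTRL D set, shCTRL VXN replicate 2 was highest in 54 L1 subfamilies, 17 of them young, and lowest in 53, and over all rows highest in 8672 and lowest in 9731. Over all rows it lay closer to the first 2 libraries of the shDAT D set than to its own 2 set members in 15400 of 20402, and among L1 subfamilies in 46 of 127. Results of the authors' tables are therefore also given without these libraries.

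Values below are normalised counts, the counts divided by the authors' DESeq2 size factors. They are sums over all copies of a subfamily and are not scaled to length, so subfamilies are compared across libraries and not with each other. In bulk RNA, fewer cells with a transcript and less of it per cell cannot be told apart.

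L1 rows took 0.331%, 0.331% and 0.293% of all counts in the shCTRL V set, 0.342%, 0.339% and 0.315% in the shDAT D set, and 0.284%, 0.282% and 0.299% in the shCTRL D set. The shDAT D set lay above the shCTRL D set in every library, while shCTRL VXN replicate 3 placed the shCTRL V set among the shCTRL D values. Summed L1 normalised counts averaged 150159 ± 9571 (SD, n = 3) in shCTRL V, 150415 ± 5362 in shDAT D and 135171 ± 1442 in shCTRL D. Young names held 20.8%, 20.9% and 19.4% of L1 counts in shCTRL V, 22.7%, 22.6% and 21.5% in shDAT D, and 20.4%, 20.3% and 22.4% in shCTRL D. The young share of shCTRL VXN replicate 2, at 22.4%, lay apart from 20.4% and 20.3% in its set and within the range of shDAT D. Wilson 95% intervals reached at most 0.002 percentage points to either side for the L1 share and 0.261 for the young share, and cover counting error only. Older names held 69.4% to 73.9% of L1 counts over the 9 libraries, HAL1 names 3.96% to 5.77% and the others 2.44% to 2.96%.

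**Figure D1:**
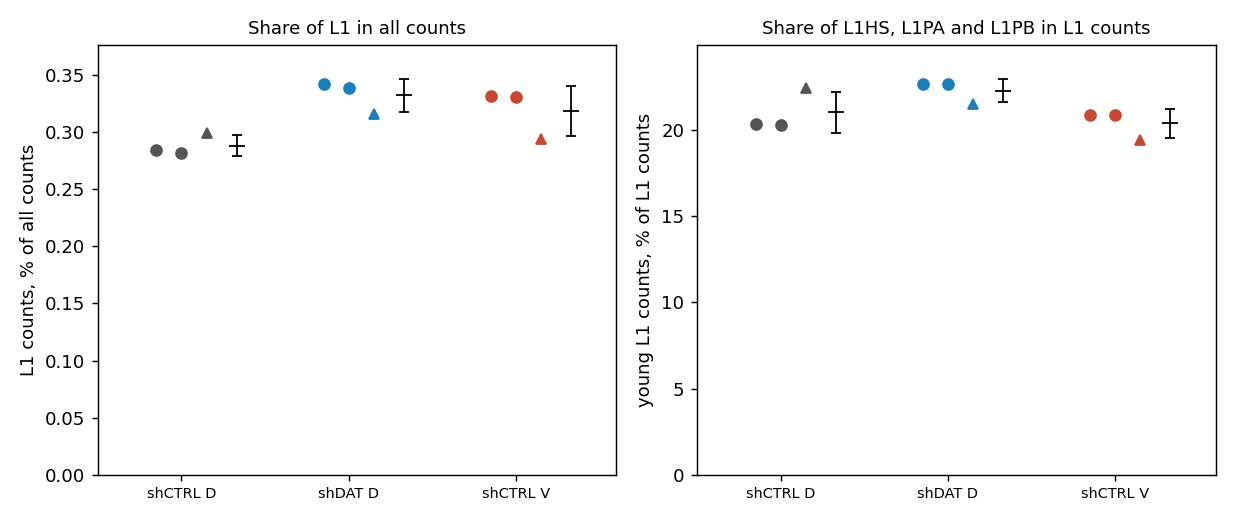
L1 counts as a percent of all counts (left) and young L1 counts (L1HS, L1PA, L1PB) as a percent of L1 counts (right) in each library, by column set of the authors' tables. Circles are libraries, triangles those labelled shCTRL VXN, and bars the mean ± SD of 3; the young share of the shCTRL D triangle, 22.4%, lies apart from 20.4% and 20.3% in the same set.

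Between shCTRL V and shCTRL D, L1 subfamilies went in both directions. The youngest names, L1HS, L1PA2 and L1PA3, were higher, as were L1PA17, L1MD, L1MB5 and L1M8, while L1PA15-16, L1MEb and HAL1 were lower. Of 129 L1 subfamilies with an adjusted p in the authors' deposited table, 23 (17.8%) were called higher and 10 (7.75%) lower, a call being an adjusted p under 0.05. Over all 24274 rows of the authors' deposited table with an adjusted p, 21.4% were higher and 22.7% lower, and over 869 other repeat subfamilies 12.2% and 3.8%. The share of higher L1 subfamilies was thus near that of all rows, and the share of lower ones was below it. The median log2 fold change (shrunken by DESeq2, as in all values of these tables) was 0.04 for L1 in the authors' deposited table, against 0.08 for other repeats. Repeats took 1.95% to 2.12% of counts in the shCTRL V set and 1.68% to 1.75% in the shCTRL D set, and summed epithelial markers 5159 to 5328 CPM and 4492 to 4607 CPM, and the part of either in the L1 values was not tested. With size factors from repeat rows alone, which moved the median of all rows to -0.10, the split became 7 higher (5.43%, all rows 15.3%) and 13 lower (10.1%, all rows 24.8%). Left without shSLC6A3 DMSO replicate 1, a DESeq2 rerun called 12 higher (9.3%, all rows 19.1%) and 7 lower (5.43%, all rows 20.7%), and without shCTRL VXN replicate 2 it called 20 higher (15.5%, all rows 23.5%) and 9 lower (6.98%, all rows 24.6%). Leaving out all 3 shCTRL VXN libraries gave 29 higher (22.5%, all rows 21.6%) and 7 lower (5.43%, all rows 23.9%). With the number series as a term it gave 25 higher (19.1%, all rows 21.1%) and 12 lower (9.16%, all rows 21.7%).

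L1HS, the subfamily to which the copies still mobile in people belong, had 720, 764 and 623 normalised counts in the shCTRL V set against 486, 489 and 515 in shCTRL D. Every shCTRL V library lay above every shCTRL D library, and the shDAT D set, at 539, 603 and 521, lay between them with the VXN library the lowest in each of these 2 sets. The log2 fold change of shCTRL V over shCTRL D was 0.49 (SE 0.11, DESeq2 adjusted p = 2.05e-05) in the authors' deposited table. L1PA2, the subfamily closest in age to L1HS, had 3610, 3601 and 2441 against 2273, 2032 and 2519. Here the sets overlapped, because shCTRL VXN replicate 3 lay below shCTRL VXN replicate 2, although the other shCTRL V libraries were above all others. Its log2 fold change was 0.47 (SE 0.14, DESeq2 adjusted p = 0.00178) in the authors' deposited table, and 0.74 without the VXN libraries in the unshrunken rerun.

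L1PA3 had 6495, 6458 and 4981 in shCTRL V and 4860, 4876 and 4973 in shCTRL D, so its sets were separated only narrowly, at the 2 VXN libraries they hold. The authors' deposited table gave 0.28 (SE 0.10, DESeq2 adjusted p = 0.0182). That call was lost without shCTRL DMSO replicate 3 (DESeq2 adjusted p = 0.13), shSLC6A3 DMSO replicate 1 (0.12), replicate 2 (0.056) or replicate 3 (0.055), and with size factors from repeats alone (0.27). L1PA4 stood the other way, at 3176, 3217 and 2629 against 3306, 3184 and 3698. It overlapped between the sets and was not called, with -0.17 (SE 0.10, DESeq2 adjusted p = 0.18) in the authors' deposited table. L1PA5, at 3635, 3472 and 3040 against 3126, 3060 and 3494, overlapped as well.

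The youngest subfamilies also changed place relative to L1PA4 within libraries, a measure that does not depend on size factors and was chosen after its values were seen. The count ratio of L1PA2 to L1PA4 was 1.14, 1.12 and 0.928 in shCTRL V, 0.655, 0.698 and 0.696 in shDAT D, and 0.687, 0.638 and 0.681 in shCTRL D. For L1HS to L1PA4 it was 0.227, 0.238 and 0.237 in shCTRL V, while the other 6 libraries held 0.123 to 0.154. The shCTRL V libraries, the VXN one included, were above all others in both ratios, and shDAT D and shCTRL D overlapped. For L1PA3 to L1PA4 the ratio was 2.05, 2.01 and 1.89 in shCTRL V and at most 1.53 in the other 6 libraries.

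**Figure D2:**
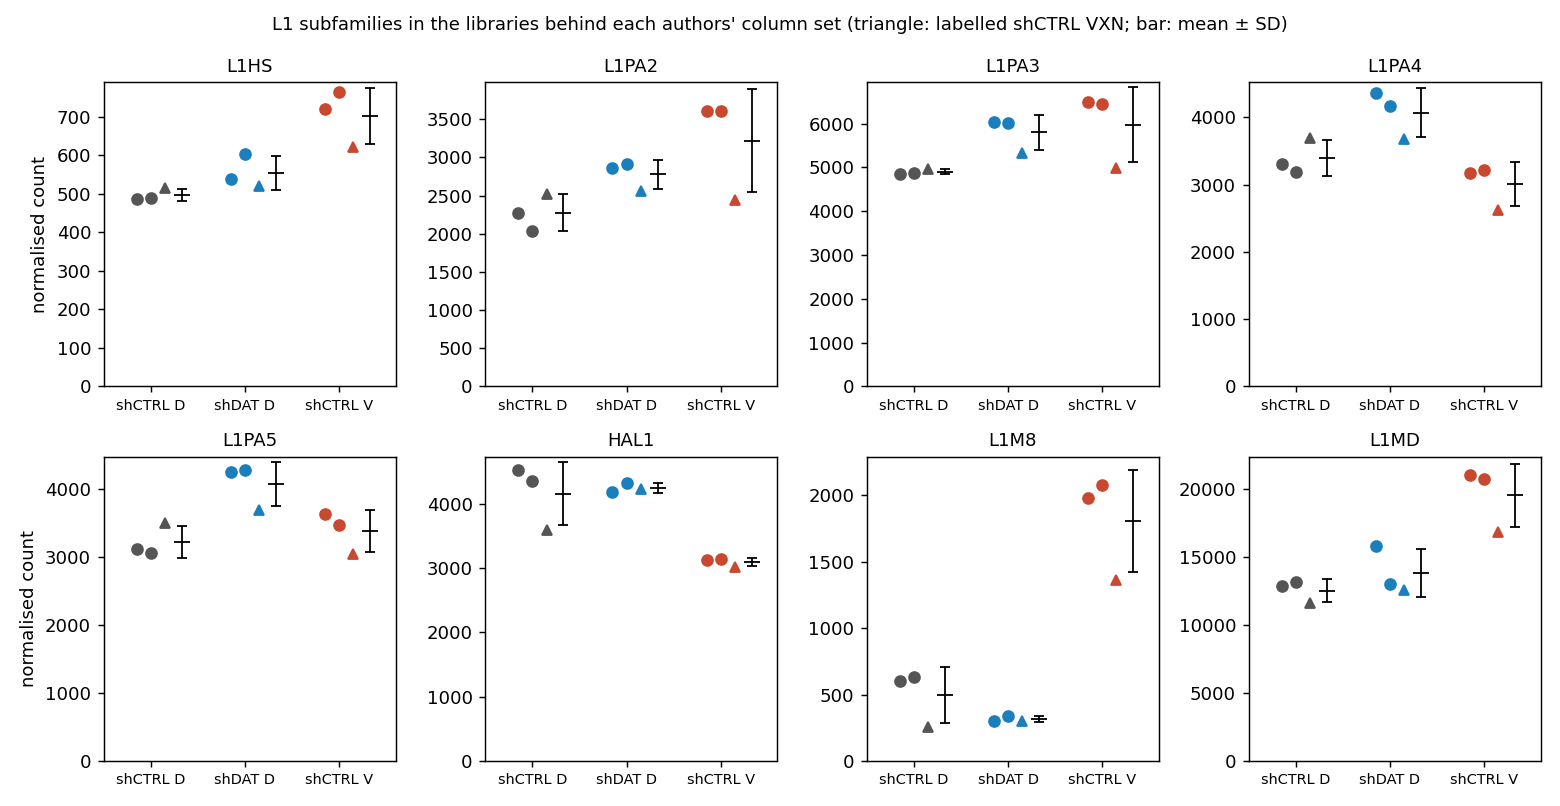
Normalised counts (counts divided by the authors' size factors, linear axis from 0) of 8 L1 subfamilies in each library, by column set of the authors' tables. Circles are libraries, triangles those labelled shCTRL VXN, and bars the mean ± SD of 3; L1HS and L1M8 are higher in every shCTRL V library than in any shCTRL D library, and HAL1 is lower.

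Among the other primate lineages the calls were few. L1PA17 had 335, 378 and 360 normalised counts in shCTRL V against 257, 238 and 249 in shCTRL D. The sets did not overlap, and the shDAT D values of 277, 265 and 245 lay with shCTRL D. The authors' deposited table gave L1PA17 a log2 fold change of 0.51 (SE 0.12, DESeq2 adjusted p = 2.87e-05). L1PA15-16 was the clearest young subfamily on the lower side, with 90.5, 88.2 and 88.7 in shCTRL V, 162, 155 and 148 in shDAT D, and 153, 143 and 128 in shCTRL D. All 3 shCTRL V libraries were below the other 6, and the log2 fold change was -0.63 (SE 0.17, DESeq2 adjusted p = 0.000323) in the authors' deposited table.

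L1PB1 had 3478, 3566 and 3096 in shCTRL V and 2864, 2878 and 2609 in shCTRL D, with no overlap. Its log2 fold change of 0.27 (SE 0.09, DESeq2 adjusted p = 0.00716) in the authors' deposited table was the only call among 8 L1PB names. It was lost without shSLC6A3 DMSO replicate 1 (DESeq2 adjusted p = 0.064) and with size factors from repeats alone (0.32). L1PA8A, at 172, 202 and 173 against 207, 248 and 248, was lower in every shCTRL V library. L1PA11, at 753, 690 and 605 against 785, 809 and 847, was lower by the same measure. In the authors' deposited table they had log2 fold changes of -0.34 (SE 0.14, DESeq2 adjusted p = 0.0355) and -0.25 (SE 0.11, DESeq2 adjusted p = 0.0409). Both calls were lost without the VXN libraries (DESeq2 adjusted p = 0.22 and 0.24) and when some single libraries were left out. By lineage, 4 of 18 L1HS and L1PA names were higher and 3 lower, with a median of -0.02 in the authors' deposited table. L1P names without A or B gave 1 lower call among 10, L1P4a, at 46.9, 27.4 and 29.9 against 51.8, 59.2 and 91.2. The authors' deposited table gave it -0.80 (SE 0.34, DESeq2 adjusted p = 0.0123), a call lost without the VXN libraries (DESeq2 adjusted p = 0.18).

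L1M8 had the largest log2 fold change of any L1 subfamily in the authors' deposited table. It stood at 1983, 2075 and 1364 normalised counts in shCTRL V and at 603, 631 and 252 in shCTRL D. The shCTRL V libraries exceeded all others, and shCTRL VXN replicate 2 lay with the shDAT D set (301, 340 and 300) rather than with its own. In the authors' deposited table the log2 fold change was 1.74 (SE 0.37, DESeq2 adjusted p = 1.33e-06), and the unshrunken rerun without the VXN libraries gave 1.72. L1MD had 21001, 20698 and 16825 in shCTRL V, 15789, 13025 and 12542 in shDAT D, and 12824, 13142 and 11571 in shCTRL D. The shCTRL V libraries were again above the other 6, with 0.63 (SE 0.11, DESeq2 adjusted p = 1.19e-07) in the authors' deposited table.

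L1MB5 was the tightest of the higher subfamilies, at 2349, 2298 and 2294 in shCTRL V, 1828, 1911 and 1899 in shDAT D, and 1770, 1786 and 1780 in shCTRL D. Its libraries differed little within sets, the VXN ones included, and the authors' deposited table gave 0.38 (SE 0.06, DESeq2 adjusted p = 6.1e-10). L1MEf was at 1012, 1003 and 934 against 744, 683 and 907, where the last shCTRL D library came close to the shCTRL V range. The authors' deposited table gave L1MEf 0.32 (SE 0.11, DESeq2 adjusted p = 0.00742), lost without shSLC6A3 DMSO replicate 3 (DESeq2 adjusted p = 0.071). L1M3a was at 278, 260 and 211 against 181, 172 and 109, all higher, with 0.60 (SE 0.27, DESeq2 adjusted p = 0.0254) in the authors' deposited table. It was lost without shCTRL DMSO replicate 3 (DESeq2 adjusted p = 0.12), shSLC6A3 DMSO replicate 1 (0.086) or shCTRL VXN replicate 2 (0.063), and with size factors from repeats alone (0.11).

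Lower among the older names were L1MEb, L1M6, L1MA5A, L1ME3D and L1M2c. L1MEb had 137, 167 and 165 normalised counts in shCTRL V, 295, 296 and 298 in shDAT D, and 234, 262 and 253 in shCTRL D. The 3 sets did not overlap at all, and the authors' deposited table gave -0.64 (SE 0.14, DESeq2 adjusted p = 3.83e-06). L1M6 was at 168, 159 and 140 against 214, 215 and 240, all lower, with -0.49 (SE 0.15, DESeq2 adjusted p = 0.00179) in the authors' deposited table and a DESeq2 adjusted p of 0.054 without the VXN libraries. L1MA5A was at 303, 325 and 283 against 408, 393 and 371, and L1ME3D at 274, 300 and 279 against 389, 373 and 310. Neither overlapped, and the authors' deposited table gave them -0.35 (SE 0.11, DESeq2 adjusted p = 0.00288) and -0.31 (SE 0.12, DESeq2 adjusted p = 0.0208). The L1ME3D call was lost without any one of 4 libraries (DESeq2 adjusted p 0.080 to 0.15). L1M2c lay below a mean of 1 CPM, at 12.3, 9.1 and 13 against 37.4, 15.5 and 30.9, with -1.02 (SE 0.48, DESeq2 adjusted p = 0.0143) in the authors' deposited table.

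Within the older names, 18 of 88 were higher and 5 lower, with a median of 0.08 in the authors' deposited table. L1MB names were higher in 3 of 7 and lower in 0, L1MC in 2 of 11 and 0, L1MD names in 2 of 6 and 0, and L1ME in 5 of 27 with 2 lower. L1MA names gave 2 higher and 1 lower of 12, and the numbered L1M names 4 and 2 of 25. Medians of these lineages ran from 0.01 for L1MA to 0.16 for L1MB and L1MD in the authors' deposited table. Among the 127 subfamilies past the filter, 34 (26.8%, all rows 30.4%) were higher in all 3 shCTRL V libraries than in any of shCTRL D, and 16 (12.6%, all rows 29.7%) were lower in all.

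HAL1 names, of elements that carry the ORF1 part of L1 and lack ORF2, gave 1 call among 4. HAL1 itself had 3132, 3140 and 3020 normalised counts in shCTRL V, 4184, 4334 and 4239 in shDAT D, and 4529, 4352 and 3598 in shCTRL D. It was lower in all 3 shCTRL V libraries than in the other 6, and its log2 fold change was -0.42 (SE 0.09, DESeq2 adjusted p = 1.07e-05) in the authors' deposited table. HAL1ME was at 1939, 2044 and 1776 against 2199, 2357 and 1992, with -0.18 (SE 0.10, DESeq2 adjusted p = 0.137) in the authors' deposited table. It passed without the VXN libraries at an unshrunken -0.19 (DESeq2 adjusted p = 0.0036). HAL1M8 and HAL1b differed by 0.10 and 0.01 in the authors' deposited table (DESeq2 adjusted p = 0.438 and 0.971).

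**Figure D3:**
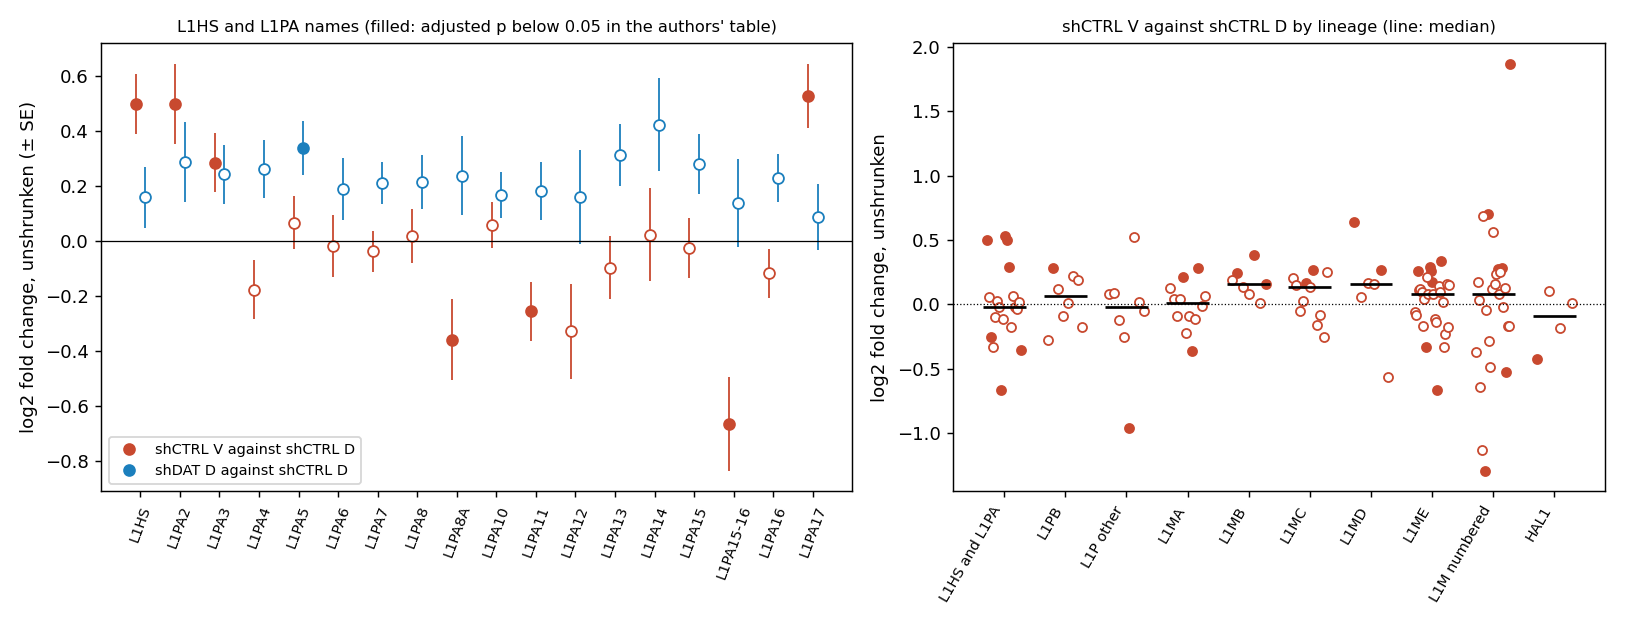
Left, unshrunken log2 fold changes (± SE, DESeq2 rerun of the authors' columns) of the 18 L1HS and L1PA names in both comparisons, which share the shCTRL D libraries. Right, the same value for shCTRL V against shCTRL D in the subfamilies past the low-count filter by lineage, X9_LINE left out, with a line at the median; filled points had an adjusted p below 0.05 in the authors' table. L1HS, L1PA2, L1PA3 and L1PA17 are the filled points above 0 on the left for shCTRL V, and L1M8 is the highest point on the right.

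The comparison of shDAT D with shCTRL D, which uses the same shCTRL D libraries, gave calls in 1 direction only. L1PA5, L1M5, L1MB7, L1ME1, L1ME2, L1ME3G and L1ME4c were higher, by small amounts, and no L1 subfamily was lower. Of 70 L1 subfamilies with an adjusted p in the authors' deposited table, 7 (10%) were higher and 0 lower. Of all 131 L1 subfamilies with a p in the DESeq2 rerun, 37 (28.2%, all rows 11.4%) had an unadjusted p below 0.05, all higher. Over all 10403 rows with an adjusted p in the authors' deposited table, 1% were higher and 5.62% lower, and over 122 other repeat subfamilies 0.82% in each direction. The unshrunken median was 0.15 for L1, 0.16 for other repeats and -0.02 for all rows. With size factors from repeat rows alone the median was -0.02 for L1 and -0.19 for all rows, and 2 L1 subfamilies were higher (1.87%, all rows 0.871%) and 1 lower (0.935%, all rows 30.7%). Past the filter, 55 of 127 L1 subfamilies (43.3%, all rows 8.08%) were higher in every shDAT D library than in any shCTRL D library, and 0 (all rows 10.7%) were lower in every one. Mitochondrial genes took 6.05% to 6.96% of counts in the shDAT D set and 5.26% to 5.45% in the shCTRL D set, and their part in the L1 values was not tested.

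These calls depended on the libraries in the fit. A DESeq2 rerun without any one of shCTRL DMSO replicates 1 and 2, shSLC6A3 DMSO replicates 2 and 3 and shCTRL VXN replicate 1 called 0 L1 subfamilies, with 18 to 35 at an unadjusted p below 0.05 (13.7% to 26.7%, all rows 3.97% to 7.68%). Over all rows these reruns called only 0 to 13, so the loss of calls was not particular to L1. Without shCTRL VXN replicate 2, the library apart in the shCTRL D set, a rerun called 34 higher (26.6%, all rows 14.8%) and 4 lower (3.12%, all rows 22.7%). Leaving out all 3 shCTRL VXN libraries gave 44 higher (34.4%, all rows 14.2%) and 3 lower (2.34%, all rows 24.2%). Without shCTRL VXN replicate 2 the unshrunken medians were 0.14 for L1, 0.26 for other repeats and -0.03 for all rows. Without all 3 VXN libraries they were 0.17, 0.24 and -0.03, so the shift to higher values was not particular to L1. The number series as a term in DESeq2 gave 16 higher (14.3%, all rows 5.62%) and 1 lower (0.893%, all rows 10.2%). edgeR called 0 of all 20402 rows on the same columns, L1 included. At an unadjusted p below 0.05 there were 52 of 127 L1 subfamilies (40.9%, all rows 20.8%), all of them higher. With the number series as a term edgeR again called 0 of all rows, with 63 L1 subfamilies at an unadjusted p below 0.05 (49.6%, all rows 30.4%).

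**Figure D4:**
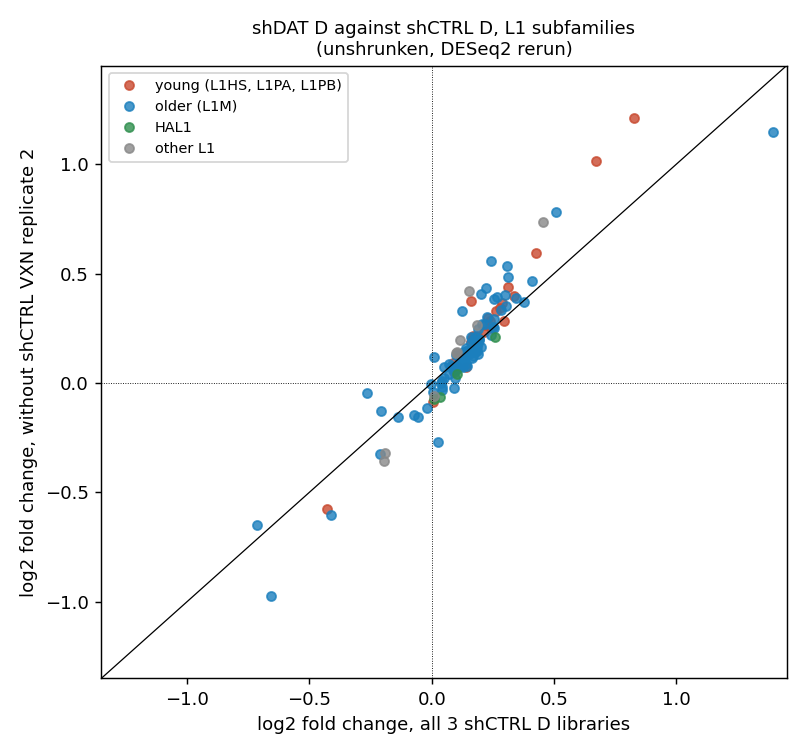
Unshrunken log2 fold changes of the 127 L1 subfamilies past the low-count filter for shDAT D against shCTRL D, with all 3 shCTRL D libraries (horizontal) and without shCTRL VXN replicate 2 (vertical), coloured by class; the line marks equal values. Most points lie above 0 on both axes, and L1PB and L1PB3 are the 2 young points farthest to the upper right.

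L1PA5 had 4248, 4285 and 3696 normalised counts in shDAT D against 3126, 3060 and 3494 in shCTRL D. Every shDAT D library was higher, the VXN library being the lowest of shDAT D and the highest of shCTRL D. The authors' deposited table gave a log2 fold change of 0.28 (SE 0.10, DESeq2 adjusted p = 0.0295), and the unshrunken rerun 0.34. Its value for shCTRL V in the authors' deposited table was 0.07 (SE 0.10, DESeq2 adjusted p = 0.626). L1PA4, at 4369, 4174 and 3673 against 3306, 3184 and 3698, overlapped because shCTRL VXN replicate 2 exceeded shCTRL VXN replicate 1. The authors' deposited table gave 0.18 (SE 0.11, DESeq2 adjusted p = 0.0863), and without shCTRL VXN replicate 2 the unshrunken value was 0.33 (DESeq2 adjusted p = 0.000869).

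For L1HS, L1PA2 and L1PA3 all shDAT D libraries were above all shCTRL D libraries, and none was called. The authors' deposited table gave 0.08 for L1HS (SE 0.09, DESeq2 adjusted p = 0.302), 0.13 for L1PA2 (SE 0.14, DESeq2 adjusted p = 0.158) and 0.16 for L1PA3 (SE 0.11, DESeq2 adjusted p = 0.111). L1PA3 passed without shCTRL VXN replicate 2 (0.25 unshrunken, DESeq2 adjusted p = 0.021), and L1HS did not (0.19, DESeq2 adjusted p = 0.19). Of the 26 young names, 15 were higher in every shDAT D library, and without shCTRL VXN replicate 2 14 were called higher and 1, L1PBa1, lower.

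L1PB and L1PB3 had no adjusted p in the authors' deposited table and were chosen after their values were seen. L1PB had 293, 292 and 236 normalised counts in shDAT D, 116, 122 and 226 in shCTRL D and 125, 138 and 120 in shCTRL V. L1PB3 had 358, 394 and 381 in shDAT D, 192, 181 and 338 in shCTRL D and 218, 224 and 226 in shCTRL V. In both, shCTRL VXN replicate 2 stood near the shDAT D set, and shSLC6A3 DMSO replicates 2 and 3 stood with the shCTRL V set. Unshrunken log2 fold changes over shCTRL D were 0.83 for L1PB and 0.67 for L1PB3 with all libraries. Without shCTRL VXN replicate 2 they were 1.21 (DESeq2 adjusted p = 6.13e-11) and 1.01 (DESeq2 adjusted p = 1.85e-12). That fit leaves out the shCTRL D library nearest to shDAT D, and both subfamilies were picked by their values. These p-values are therefore no separate support.

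Older names made up 6 of the 7 calls. L1ME2 had 2142, 2156 and 2096 normalised counts in shDAT D, 1737, 1747 and 1886 in shCTRL D, and 1701, 1747 and 1614 in shCTRL V. L1ME4c had 1093, 1119 and 1152 in shDAT D and 902, 876 and 988 in shCTRL D. In both, the sets were separate and shCTRL VXN replicate 2 was the highest of its set. The authors' deposited table gave L1ME2 0.22 (SE 0.07, DESeq2 adjusted p = 0.0257) and L1ME4c 0.24 (SE 0.09, DESeq2 adjusted p = 0.0334). L1M5, at 5928, 6091 and 5884 against 5339, 5305 and 5105, had 0.16 in the authors' deposited table (SE 0.06, DESeq2 adjusted p = 0.0397). L1ME1, at 4145, 4210 and 4166 against 3721, 3559 and 3686, had 0.17 in the authors' deposited table (SE 0.06, DESeq2 adjusted p = 0.0301). For both, shCTRL VXN replicate 2 was within or below the range of its 2 set members.

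L1ME3G was the one subfamily called higher in both of the authors' deposited tables, which share their shCTRL D libraries. It had 1678, 1799 and 1730 in shDAT D, 1857, 1888 and 1635 in shCTRL V, and 1486, 1489 and 1426 in shCTRL D. All 6 libraries of the first 2 sets were above shCTRL D. The log2 fold change for shDAT D was 0.20 (SE 0.08, DESeq2 adjusted p = 0.0462) in the authors' deposited table, and for shCTRL V 0.28 (SE 0.08, DESeq2 adjusted p = 0.000899). L1MB7, named here beyond the rule because its call was seen, had 0.15 in the authors' deposited table (DESeq2 adjusted p = 0.0387). L1M8 was not called, with 301, 340 and 300 against 603, 631 and 252, and its VXN library was the lowest of shCTRL D. Without shCTRL VXN replicate 2 the unshrunken L1M8 value was -0.98 (DESeq2 adjusted p = 4.45e-10), 1 of the 4 lower calls.

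By their labels, the remaining comparisons set the hairpin against SLC6A3, and VXN, against shCTRL DMSO, with the labels themselves unchecked. Each labelled group holds 1 library of the shCTRL V set, so differences between column sets add to the scatter within groups. A count of 0 calls in these comparisons therefore does not show that L1 was unchanged. edgeR called 0 of 127 L1 subfamilies for shSLC6A3 DMSO and 0 of all 20402 rows (0%), with a lowest L1 adjusted p of 0.978. At an unadjusted p below 0.05 there were 14 L1 subfamilies (11%, all rows 4.56%), all lower in shSLC6A3 DMSO, and DESeq2, which also called 0, gave 11 (8.4%, all rows 3.07%). The edgeR count moved with single libraries, as did the share over all rows. It was 2 (1.57%, all rows 1.38%) without shSLC6A3 DMSO replicate 3 and 5 (3.94%, all rows 1.35%) without its replicate 2. Without shSLC6A3 DMSO replicate 1 it was 22 (17.2%, all rows 12.9%). Without shCTRL DMSO replicate 1 or 2 it was 5 (3.94%, all rows 1.44%) or 4 (3.12%, all rows 1.42%). Fitted on repeat rows alone, 8 L1 subfamilies passed (6.3%, all repeat rows 4.93%), 3 of them higher and 5 lower. The median log2 fold change was -0.14 for L1 and -0.01 for all rows, and 110 of the 127 L1 values were negative. In 20 L1 subfamilies (15.7%, all rows 4.51%) every shSLC6A3 DMSO library was below every shCTRL DMSO library, and in 3 (2.36%, all rows 4.43%) above. L1PA5 was one of the 20 lower ones, with 4248, 4285 and 3635 normalised counts in shCTRL DMSO and 3472, 3126 and 3060 in shSLC6A3 DMSO. Its log2 fold change was -0.36 with an unadjusted edgeR p of 0.0173, which did not pass the adjustment.

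For shCTRL VXN edgeR called 0 of 127 L1 subfamilies and 2 of all rows (0.0098%). At an unadjusted p below 0.05 there were 4, L1M2b, L1M2, L1PA6 and X9_LINE (3.15%, all rows 1.88%), all lower in shCTRL VXN, and DESeq2, which also called 0, gave 5 (3.82%, all rows 1.29%). Without shCTRL DMSO replicate 1 or 2 the edgeR count was 2 (1.57% and 1.56%, all rows 1.47% and 1.25%). Without shCTRL DMSO replicate 3 it was 7 (5.47%, all rows 1.99%), 1 of them higher. Fitted on repeat rows alone, 22 were lower (17.3%, all repeat rows 6.35%). The median was -0.11 for L1, and 109 of 127 values were negative. In 22 L1 subfamilies (17.3%, all rows 3.02%) every shCTRL VXN library was below every shCTRL DMSO library, and in 0 (all rows 3.34%) above. L1M2, at 1947, 2006 and 1969 in shCTRL DMSO and 1719, 1485 and 1485 in shCTRL VXN, had a log2 fold change of -0.34 with an unadjusted edgeR p of 0.00702. These 2 comparisons share the shCTRL DMSO libraries, and for VXN the label and the number series cannot be told apart. The shSLC6A3 DMSO comparison also overlaps that of shDAT D with shCTRL D. In both, shCTRL DMSO replicates 1 and 2 stand opposite shSLC6A3 DMSO replicates 2 and 3, with the direction reversed. Their L1 differences are thus not separate observations.

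The share of L1 in all counts was 0.337% ± 0.006 (SD, n = 3) in shCTRL DMSO, 0.299% ± 0.028 in shSLC6A3 DMSO and 0.302% ± 0.011 in shCTRL VXN. The differences of -0.038 and -0.035 percentage points each gave p = 0.1 in a two-sided exact permutation test, the smallest p that 3 against 3 libraries allow (0.2 adjusted over 4 tests). No library of the other 2 groups exceeded the lowest shCTRL DMSO library, although shSLC6A3 DMSO replicate 1 equalled it at 0.331% after rounding. Within the most common number series of identifiers, which leaves out shCTRL DMSO replicate 1, the shSLC6A3 difference was -0.036. The young share of L1 counts was 22.0% ± 1.04 in shCTRL DMSO, 20.5% ± 0.32 in shSLC6A3 DMSO and 21.1% ± 1.53 in shCTRL VXN. Its differences of -1.55 and -0.946 percentage points gave p = 0.2 and 0.5 in the same exact permutation test (adjusted 0.267 and 0.5), which cannot fall below 0.1. Counting L1HS and L1PA names only, the shSLC6A3 difference was -1.49, with p = 0.1 by exact permutation. For VXN the difference was -0.098 without shCTRL VXN replicate 3, -1.59 without shCTRL VXN replicate 2 and -1.55 without shCTRL DMSO replicate 3.

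Genes that act on L1 were read from lists chosen with earlier results of these data known, so their shares only describe the lists. The part of these genes in the L1 values was not tested. In shCTRL V against shCTRL D, where 21.4% of rows were higher and 22.7% lower, 4 of 27 genes of chromatin silencing of L1 were higher and 19 lower, with a median of -0.45 in the authors' deposited table. HELLS (ENSG00000119969.15, GRCh38 chromosome 10, 94501434 to 94613905), a chromatin remodeller needed for DNA methylation of repeats, had 457, 434 and 325 normalised counts in shCTRL V and 3604, 3371 and 2726 in shCTRL D. The authors' deposited table gave HELLS -2.99 (SE 0.14), DNMT1, the maintenance DNA methyltransferase, -1.61 (SE 0.08), SUV39H1, a histone H3K9 methyltransferase, -2.11 (SE 0.11) and KDM1A, a histone demethylase, -0.88 (SE 0.05). SETDB1, another H3K9 methyltransferase, TASOR and MORC2 of the HUSH pathway, and SIRT6 were the higher ones. Of 24 genes of post-transcriptional restriction, 3 were higher and 11 lower, with a median of -0.11 in the authors' deposited table. HNRNPL, an RNA-binding protein, had -1.06, BRCA1, a DNA repair protein, -2.07, and the cytidine deaminases APOBEC3C and APOBEC3B -0.65 and -1.66 in the authors' deposited table. TUT7 and ERCC4 were among the higher ones.

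Of 17 host factors that the L1 cycle uses, 2 were higher (NXF1 and ZCCHC3) and 12 lower in the same comparison, with a median of -0.48 in the authors' deposited table. RNASEH2A, a subunit of the enzyme that removes RNA from RNA-DNA hybrids, had 507, 479 and 447 normalised counts in shCTRL V and 2218, 2241 and 2138 in shCTRL D. The authors' deposited table gave RNASEH2A -2.20 and the DNA replication proteins LIG1, FEN1 and PCNA -2.26, -2.65 and -2.03. Factors that bind the L1 promoter went both ways, 3 higher and 3 lower of 8 with an adjusted p. Among them the authors' deposited table gave MYC -0.82, ELF1 0.57 and YY1 -0.39. L1TD1, a gene derived from the L1 ORF1, did not exceed 2 normalised counts in any library.

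In shDAT D against shCTRL D, where 1% of rows were higher and 5.62% lower, the same lists gave few calls, all of them lower. DESeq2 reruns without shSLC6A3 DMSO replicate 2 or 3, or without shCTRL DMSO replicate 2, called 0 of all rows. edgeR on the same columns also called 0, so every gene call below was lost in these settings. TRIM28 (chromosome 19, 58544091 to 58550722), the corepressor of zinc finger proteins that bind retroelements, had 34974, 33006 and 34188 normalised counts in shDAT D and 38326, 39689 and 38177 in shCTRL D. It was the only 1 of 27 silencing genes called, at -0.16 (SE 0.06, DESeq2 adjusted p = 0.0499) in the authors' deposited table. SAMHD1 (chromosome 20, 36889773 to 36951901), a deoxynucleotide hydrolase that restricts L1, had 1392, 1438 and 1468 in shDAT D and 2186, 2244 and 1575 in shCTRL D. The 2 sets were separate, with shCTRL VXN replicate 2 near shDAT D, and the authors' deposited table gave -0.42 (SE 0.13, DESeq2 adjusted p = 0.0215). HSPA8, UPF1 and RPA1 were the host factors called, 3 of 16 with an adjusted p, at -0.49, -0.20 and -0.18 in the authors' deposited table. HSPA8 had 68917, 68416 and 64290 in shDAT D and 122190, 123997 and 64547 in shCTRL D. Its sets overlapped at shCTRL VXN replicate 2. UPF1 and RPA1 were separate, with shCTRL VXN replicate 2 the lowest of shCTRL D in both.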

How the data were processed

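RNA of 9 HCT116 libraries (TruSeq RNA v2, NextSeq 500, per the labels' protocols) was processed with fastp 0.20.1, FastQC 0.11.9, STAR and DESeq2 1.34.0 on GRCh38, per the submitters' processing notes. The authors deposited unnormalised counts per gene and repeat subfamily. The counting program, its strand setting and its treatment of reads that match several copies are, in the sources used here, not given. Reads of near-identical subfamilies (L1HS, L1PA2, L1PA3) can be split between them, and L1 copies inside genes are not separated. The log2 fold changes, p-values and base means (mean signal of normalised counts) in the authors' deposited tables come from DESeq2, and the log2 fold changes there are shrunken.

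The members and gene lists were chosen with earlier results of these data known. Groups came from the treatment labels; 1 VXN title reads VNN. The labelled groups were fitted with edgeR 4.0.16 (quasi-likelihood, TMM, filterByExpr, R 4.3.3) on all 9 libraries, with p-values adjusted (Benjamini-Hochberg) over the 20402 rows that passed. The column sets of the authors' tables were found by matching the deposited statistics, not from the labels, and rerun with DESeq2 1.42.0. It returned all 38907 deposited p-values of either table within 1e-05. An adjusted p below 0.05 is a call. Named L1 rows are L1HS, L1PA2 to L1PA4, HAL1 names, and, per authors' table, up to 5 called rows per direction among young and among older names with a mean of at least 1 CPM, by log2 fold change; called rows of a class with 5 or fewer calls are all named. Up to 4 called genes per list were named, by adjusted p. Some list members are not reported here. The fits were tested on simulated data with 1 spread for all rows and no mixing of column sets. That setting differs from the labelled groups here. Alternatives were tools, scalings, filters and left-out libraries. Each library held at least 95403 L1 counts, so the spread between 3 libraries, not counting, limits precision.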

Additional observations from a re-analysis of the deposited data

How the results depend on the processing

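For shCTRL V against shCTRL D, the 33 L1 calls became 19 at an adjusted p below 0.01, 7 with a change of at least 1.5-fold as well, 20 with size factors from repeats alone, and 19 to 29 when each library was left out. Over the named subfamilies, 234 alternatives kept the direction and side of the threshold, 33 lost the call, 4 gained it and 5 changed sign, none of the last among called ones. HAL1M8 changed sign with size factors from repeats alone (-0.0083), and HAL1b with size factors from repeats alone (-0.098), without the VXN libraries (-0.083), and when single libraries were left out (-0.044 to 0.052). For shDAT D against shCTRL D, the 7 calls became 0 at an adjusted p below 0.01 and 0 with a change of at least 1.5-fold, 15 with size factors from library totals, 3 from repeats alone, 0 by edgeR with or without the number series as a term, 17 by DESeq2 with that term, 47 without the VXN libraries, and 0 to 38 when each library was left out. In both edgeR fits 0 of all rows were called as well. The alternatives with the number series were chosen after seeing the data. Here 99 named values kept their side, 44 lost the call, 7 gained it and 8 changed sign. HAL1 changed sign with size factors from repeats alone (-0.15), without the VXN libraries (-0.063) and without shCTRL VXN replicate 2 (range over single libraries -0.064 to 0.096). HAL1M8 did so under the same settings (-0.17, -0.052 and -0.072 to 0.049), and HAL1ME (-0.074) and L1HS (-0.0059) with size factors from repeats alone. The cause was not tested.

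In the labelled comparisons every alternative called 0 L1 subfamilies. The L1 share differed by -0.054 to -0.030 points for shSLC6A3 and -0.041 to -0.030 for VXN when each library was left out, and the young share by -2.16 to -1.25 and -1.59 to -0.098. Deviations of same-numbered libraries from their group means had r from -0.689 to 0.894. Across all pairs r was positive where both libraries or neither lay in the shCTRL V set, and negative otherwise. It therefore could not show whether the numbers pair the libraries. With the replicate block edgeR called 0 L1 subfamilies in both labelled comparisons, and the share differences of -0.038, -0.035, -1.55 and -0.946 each had p = 0.25 by exact permutation within numbers, the smallest that 3 pairs allow. Depth is not limiting for most L1 names, but L1M2b and L1M2c rest on few counts.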
